A study of Mus musculus and Homo sapiens with 43 samples.

Results

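The genes described here are those of the authors' deposited polysome table of 4T07 cells whose mean normalized count was 50 or more. The rule took 10654 of the 24421 genes in that table and used no measure of change. 4T07 is a mouse mammary carcinoma line, and the cells carried a control hairpin (shCtrl) or 1 of the hairpins against Lars called shLars3 and shLars4. Lars encodes leucyl-tRNA synthetase, which loads leucine onto its tRNAs. RNA was taken from a light fraction (1 to 2 ribosomes, labelled low) and a heavy fraction (3 or more ribosomes, labelled high), with 3 libraries for each hairpin and fraction and 18 polysome libraries in all. The labels do not say that the 3 libraries of a group came from separate cultures, so the p-values may measure technical spread only. No library was analysed singly, because the table gives 1 mean count, 1 log2 value and 1 standard error per gene.

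In polysome profiling, a cell extract is spun through a sucrose gradient, so that an mRNA travels with the ribosomes it carries. An mRNA with a short coding region has room for few ribosomes, and an mRNA that is rarely initiated carries few for its length. A change in the ratio of heavy to light fractions is therefore usually read as a change in how densely an mRNA is loaded, and a lack of charged tRNA can also slow ribosomes along the message and raise their number on it.

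Which way the deposited value points is not stated, and the values themselves were used to find how it was built. Genes with a single read over the whole table share their mean count with others read once in the same library, and these shared values gave 27 libraries, 9 more than the 18 polysome libraries in the labels. Their log2 values in the authors' deposited table fell into 2 sets of 6 libraries, 2 sets of 3 libraries and 9 libraries at exactly 0. A negative binomial model with 5 groups of libraries was fitted, and the groups and their signs were drawn from these same log2 values. A set of 6 and a set of 3 counted with a plus sign, and the other sets of 6 and 3 with a minus sign. The 9 others did not count, so their log2 value of 0 was set and not fitted. The model returned the deposited log2 values of the 18 libraries off 0 within 3.3e-05. It returned the standard errors of all 27 within 2.6e-06. On this fit, the deposited value is the log2 ratio between 2 sets of 6 libraries plus the log2 ratio between 2 sets of 3 libraries. Each fraction has 6 knockdown libraries over both hairpins and 3 control libraries. The value may be the difference between the heavy-to-light ratios of knockdown and control cells or the sum of both ratios, with either sign, and these cannot be told apart here. No library was given a label from its values, and genes are described by their side, positive or negative, with no statement of more or less translation. Because a value adds 2 ratios, it is given on the log2 scale only and not as a fold.

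**Figure D1:**
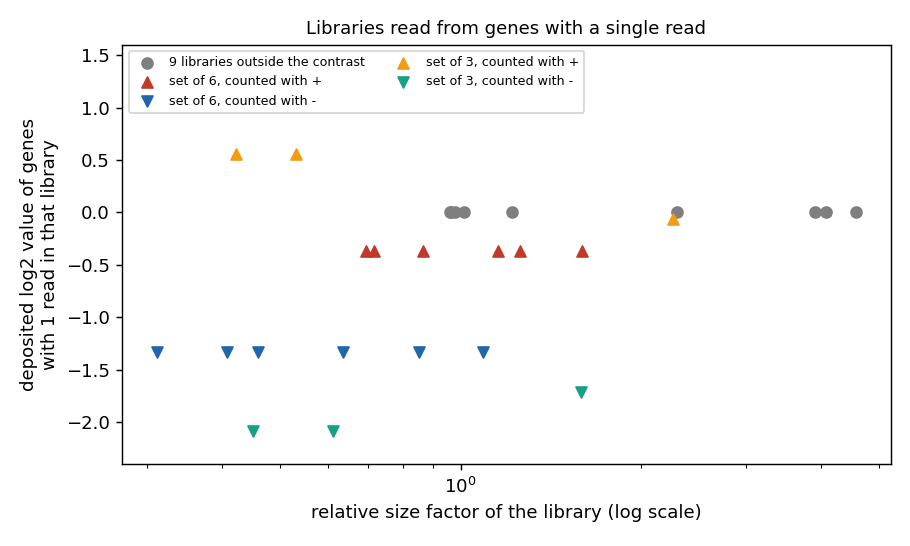
Deposited log2 value of genes with 1 read in the table (y axis) by the relative size factor of the library holding that read (x axis, log scale), 1 point per library, 27 in all. The 2 sets of 6 and 2 sets of 3 libraries lie off 0 and the 9 others lie on it.

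Library sizes differed among the 18 libraries in the contrast, with relative size factors from 0.312 to 2.26. Their median was 1.01 and 0.547 in the 2 sets of 6 libraries and 0.531 and 0.612 in the 2 sets of 3; the part of size in the gene values was not tested. Markers of the line were present: the epithelial keratin genes Krt8 and Krt18 had mean normalized counts of 8383 and 4113, and the mesenchymal genes Vim and Fn1 had 59469 and 7357. Of the marker lists, 5 of 17 epithelial, 6 of 20 mesenchymal, 3 of 17 leukocyte and 0 of 10 endothelial genes had a mean count of at least 50. The pan-leukocyte gene Ptprc had a mean count of 1.01, the leukocyte genes Cd8a, Tyrobp and Nkg7 were listed at 0, and Cd14, Cd68 and Cd3g had mean counts of 634, 141 and 97.9. Epcam, an epithelial adhesion gene, had a mean count of 16.4. Lars stood at -0.82 in the authors' deposited table (SE 0.30, DESeq2 adjusted p = 0.0285), and with all values centred on the median of the 10654 genes its adjusted p was 0.0646.

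The deposited test (DESeq2, adjusted p under 0.05) called many genes. Of the 10650 with an adjusted p, 3494 passed (32.8%), 1239 positive (11.6%) and 2255 negative (21.2%); over all 13485 genes tested, the shares were 27.9% in all, 10.4% positive and 17.5% negative. The median was -0.11, with quartiles at -0.54 and 0.30, and the median over all genes tested was -0.12. Centred on the median of the 10654 genes, which shifts every value by 0.11, 1720 passed positive and 1737 negative, so the positive share of those that passed was 49.8% rather than 35.5%. In the tails, 992 genes passed below -1 (9.31%) and 458 above 1 (4.3%), 40 passed below -2 and 138 above 2, and 0 passed below -3 and 53 above 3. The deposited standard error had a median of 0.247, and was 0.351 for genes with mean counts from 50 to 200 and 0.226 for those of at least 1000. Without the genes of cytosolic and mitochondrial ribosomal proteins and oxidative phosphorylation, 10414 genes were left, of which 1239 passed positive (11.9%) and 2037 negative (19.6%). At the edge of the count rule, Cntf at -1.38 and Mfi2 at 0.98 lay just inside a mean count of 50, and Tlr3 at 0.55 and Slc25a42 at 0.64 just outside in the authors' deposited table.

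**Figure D2:**
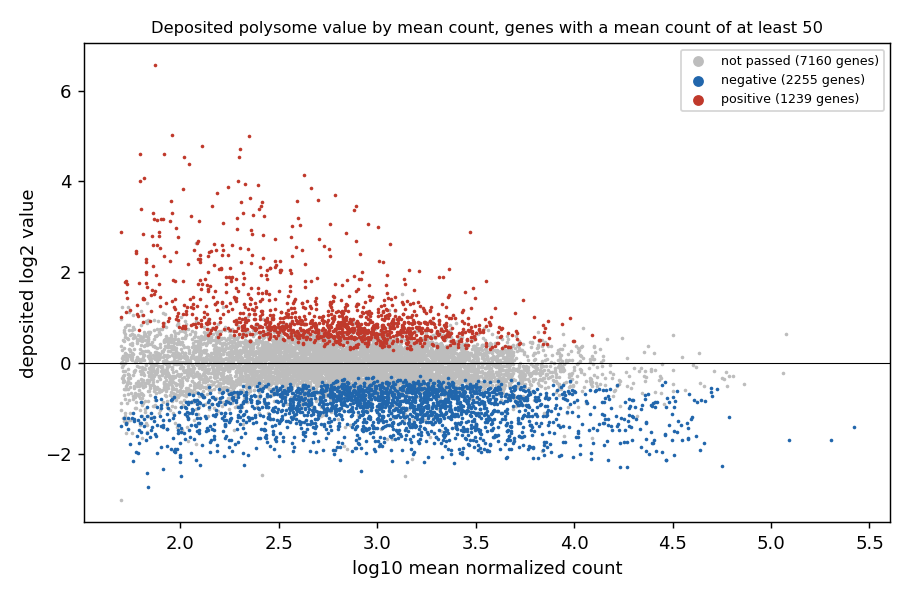
Deposited log2 value (y axis) by log10 mean normalized count (x axis), 1 point per gene for 10654 genes; 1239 passed on the positive side, 2255 on the negative side, and the rest are grey. Values above 3 occur on the positive side and none that passed lies below -3.

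Among abundant genes that passed, with a mean count of at least 1000, the 10 highest values were taken. Symbols that end in Rik or start with Gm, pseudogenes, and genes of ribosomal proteins and oxidative phosphorylation were left out. Wasf2, an activator of branched actin assembly, stood at 3.00 in the authors' deposited table (SE 0.40, DESeq2 adjusted p = 1.03e-11). Plcg1, the phospholipase that receptor tyrosine kinases activate, stood at 2.62 (SE 0.36), with the caution that it overlaps Zhx3. The nucleoporin gene Nupl1 at 2.25, the Golgi glycoprotein gene Glg1 at 2.24 and Gcn1l1 at 2.08 followed in the authors' deposited table; GCN1 binds stalled ribosomes and activates the kinase GCN2, the sensor of uncharged tRNA. Abhd2 at 2.06, the heparan sulfate enzyme gene Ndst1 at 2.03, the Rab1 GTPase-activating gene Tbc1d20 at 1.94, Tnrc18 at 1.90 and the chromatin cofactor gene Ankrd11 at 1.90 made up the rest in the authors' deposited table. Below the 10 highest of all counts, ranks 11 to 20 held the transcriptional corepressor genes Nrip1 at 3.92 and Rcor1 at 3.85, the ubiquitin ligase gene Trim56 at 3.75 and the poly-ADP-ribosylating enzyme gene Tnks at 3.56 in the authors' deposited table.

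The 10 lowest values among abundant genes were taken in the same way, so without ribosomal protein and oxidative phosphorylation genes. At any mean count, the cytosolic ribosomal protein list reached -2.29 and the oxidative phosphorylation list -2.19. Beside the host gene of a small nucleolar RNA, Snhg8 at -2.17, the authors' deposited table held the copper chaperone of cytochrome oxidase Cox17 at -2.16 and the centromere protein gene Cenpw at -2.16 (SE 0.39, DESeq2 adjusted p = 1.61e-06). The import gene Tomm7 stood at -2.09, the metal-binding gene Mt2 at -2.07, the iron-sulfur cluster gene Bola2 at -2.06 and the copper chaperone gene Atox1 at -2.05 in the authors' deposited table, with Myeov2, a small subunit of the COP9 signalosome, next. The retrocopies Rps27rt and Rpl37rt were also among the 10 lowest, and their reads cannot be told apart from those of near-identical ribosomal protein genes.

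Gene groups were followed in 57 functional lists, which together hold 2515 of the genes. The median lay above that of all 10654 genes (-0.11) in 32 lists and below it in 25. More members passed on the positive side in 29 lists, more on the negative side in 26, and equal numbers in 2. These counts are descriptions, and no list was tested as a set. Where positive or negative genes of a list are counted below, those that passed are meant, unless stated as above or below 0.

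**Figure D3:**
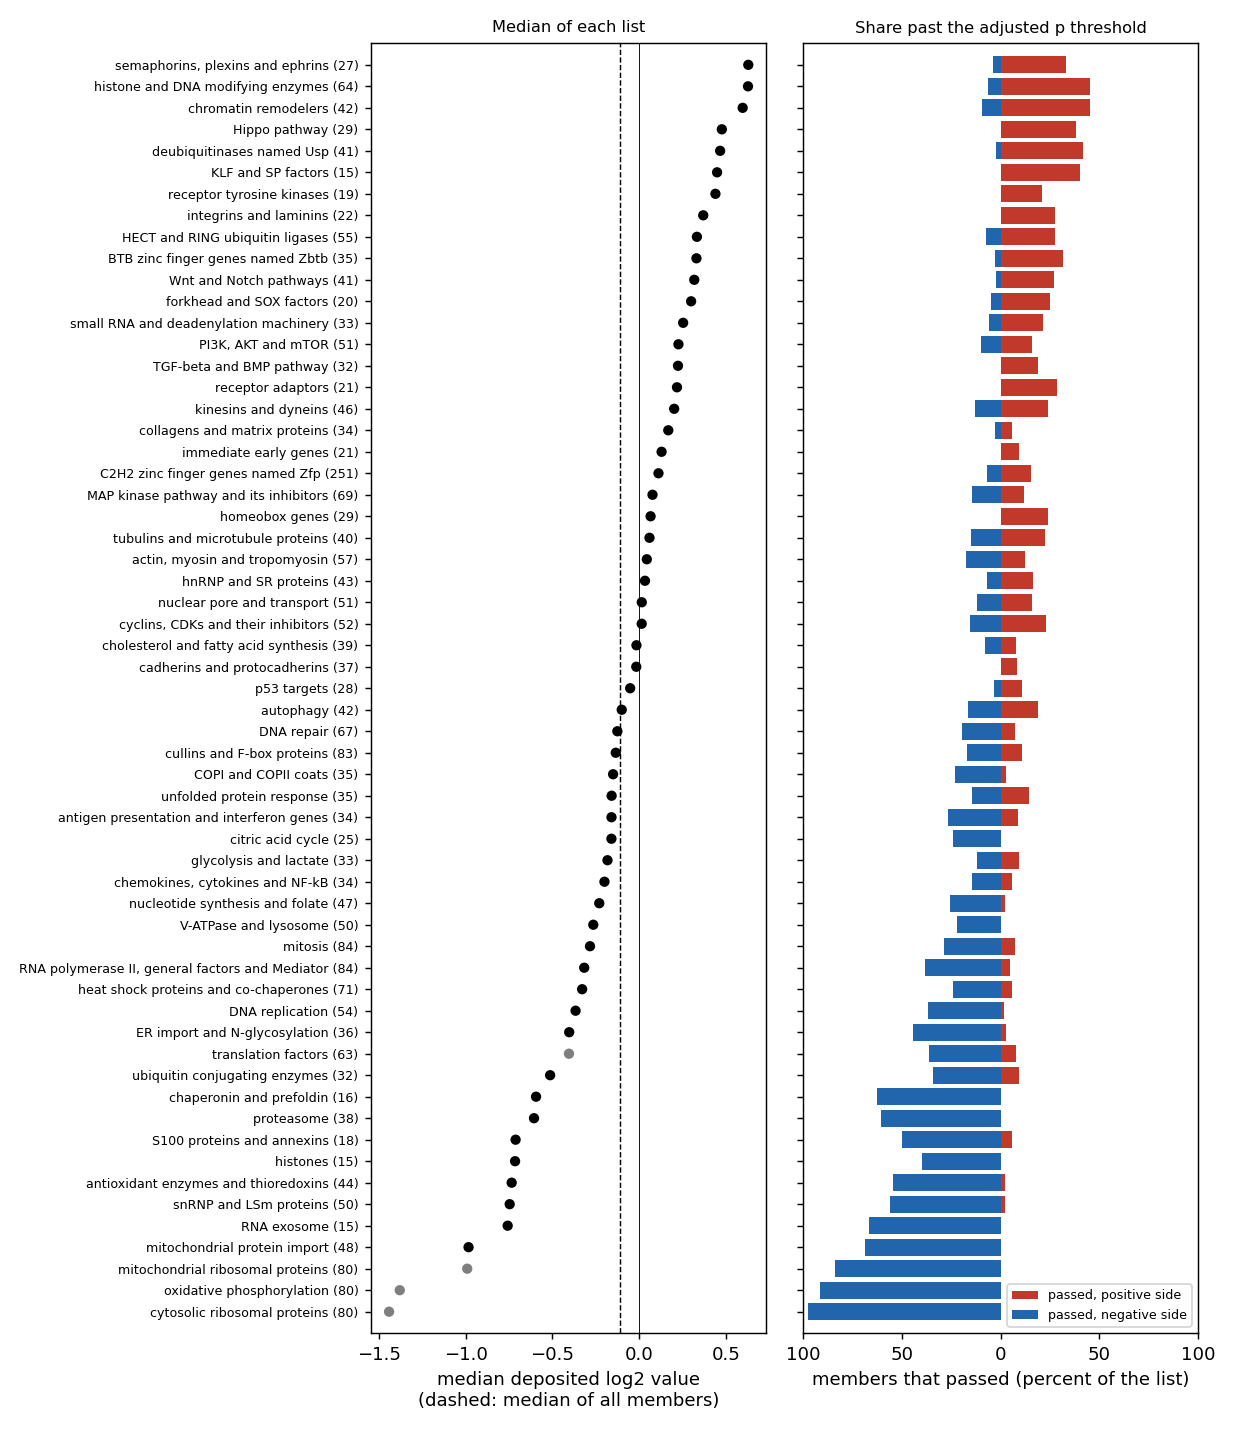
Median deposited log2 value of each gene list (left, dashed line at the median of all 10654 genes, -0.11) and the percent of its genes that passed on each side (right), with the number of genes in brackets; grey points are the translation and respiration lists shown for scale, and 2 lists are not drawn. The semaphorin and chromatin enzyme lists lie at the top, and of the black points mitochondrial protein import lies lowest.

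Enzymes that write and erase chromatin marks were mostly positive where they passed. Of 64 histone and DNA modifying enzyme genes, 29 passed positive and 4 negative, with a median of 0.63. The acetyltransferase gene Crebbp stood at 2.77 in the authors' deposited table (SE 0.38, DESeq2 adjusted p = 8.87e-11), the deacetylase gene Hdac4 at 2.61 and the H3K79 methyltransferase gene Dot1l at 2.41 (SE 0.27). The deacetylase genes Hdac2 at -0.61 and Hdac3 at -0.38 were on the negative side, and so was the demethylase gene Kdm1b at -0.95, which overlaps Dek, in the authors' deposited table; of these, Hdac3 did not pass once values were centred (adjusted p = 0.155). Of the 7 genes for H3K4 methyltransferases, which mark active promoters and enhancers, 6 passed and all 7 were above 0: Kmt2d stood at 1.48, Setd1b at 1.44, Kmt2c at 1.42, Kmt2a at 1.34, Kmt2e at 1.06, Setd1a at 0.89 and Kmt2b, which did not pass, at 0.80 in the authors' deposited table. Of 17 histone demethylase genes, 11 passed positive and 2 negative. Of 11 deacetylase genes 1 passed positive (9.09%) and 2 negative (18.2%), shares near the 11.6% and 21.2% of all genes.

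Chromatin remodelers, the ATP-driven machines that slide or evict nucleosomes, had 19 positive and 4 negative among 42 genes, with a median of 0.60. The NuRD gene Gatad2b stood at 2.24 in the authors' deposited table (SE 0.36), Baz2a at 1.74 and Atrx at 1.48. All 8 CHD remodeler genes were above 0 and 4 passed, whereas of 21 BAF and PBAF genes 6 passed positive and 3 negative. The small subunit genes Smarcb1 at -0.52 and Bcl7b at -0.59 were among the negative ones in the authors' deposited table, and Bcl7b did not pass after centring (adjusted p = 0.0595).

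Among DNA-binding factors, of 15 KLF and SP genes, 6 passed positive and 0 negative (median 0.45), with Klf7 at 2.84 and Klf9 at 1.89 in the authors' deposited table. Of 35 Zbtb genes, 11 passed positive and 1 negative (median 0.33). Of 251 genes named Zfp, which encode zinc finger proteins, 39 passed positive and 17 negative (median 0.11), which is 15.5% and 6.77%, beside 11.6% and 21.2% of all genes. Foxo3, a forkhead factor held back by insulin signaling, stood at 1.41 and Foxk1 at 1.13 in the authors' deposited table. Of 21 immediate early genes, 2 passed, both for RNA-binding proteins that destabilize AU-rich messages: Zfp36l2 at 1.46 (SE 0.14, DESeq2 adjusted p = 9.02e-22) and Zfp36l1 at 0.66 in the authors' deposited table.

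In the Hippo pathway, which limits organ growth through the coactivators YAP and TAZ, 11 of 29 genes passed positive and 0 negative, with a median of 0.48. The kinase cofactor gene Mob1a stood at 3.46 in the authors' deposited table (SE 0.28, DESeq2 adjusted p = 6.49e-31), and Vgll4, which competes with YAP for TEAD factors, at 2.94. Of 19 receptor tyrosine kinase genes 4 passed, all positive, with Fgfr2 at 2.86 (SE 0.47) and Ptk7 at 0.70 in the authors' deposited table. After centring, 8 of the 19 passed. In the MAP kinase list 8 of 69 passed positive (11.6%) and 10 negative (14.5%), beside 11.6% and 21.2% of all genes. Its members had different roles. The scaffold gene Ksr1 at 3.27, the inhibitor genes Spred2 at 3.07 and Dusp4 at 1.75 were positive, and the small GTPase genes Hras at -1.20 and Rras at -1.13 were negative in the authors' deposited table.

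The TGF-beta and BMP list had 6 positive and 0 negative in 32 genes, including the receptor gene Acvr1b at 2.44 and the ligand gene Gdf11 at 1.65 in the authors' deposited table. Of 41 Wnt and Notch genes 11 passed positive and 1 negative, with Dvl3, the cytoplasmic relay of Frizzled receptors, at 2.06, the coreceptor gene Lrp5 at 1.17 and the gamma-secretase subunit gene Psenen at -1.30 in the authors' deposited table. In the PI3K, AKT and mTOR list 8 of 51 passed positive (15.7%) and 5 negative (9.8%), beside 11.6% and 21.2% of all genes. After centring, 13 passed positive and 4 negative. Sesn2, which holds back mTORC1 when leucine is low, stood at 1.74 (SE 0.33, DESeq2 adjusted p = 3.4e-06) and Pdpk1, the kinase that activates AKT, at 1.02 in the authors' deposited table. Lamtor5, a small subunit of the lysosomal Ragulator complex, stood at -1.62, the GTPase gene Rheb at -0.71 and the cap-binding inhibitor gene Eif4ebp1 at -1.36 in the authors' deposited table.

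Among guidance genes, all 12 semaphorin genes and all 7 plexin and neuropilin genes were above 0, with 3 and 4 that passed, among them Plxna1 at 1.25 and Sema6b at 1.24 in the authors' deposited table. Of 22 genes of the integrin and laminin list, 6 passed positive and 0 negative, with the integrin gene Itgb3 at 1.22 (SE 0.19) in the authors' deposited table. The perlecan gene Hspg2, which is neither an integrin nor a laminin gene, stood at 1.03 in the authors' deposited table. Cadherins and protocadherins had 3 of 37 and collagens and other matrix proteins 2 of 34 on the positive side, shares below the 11.6% of all genes. On the negative side they had 0 and 1.

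Within RNA polymerase II, the enzyme that makes mRNA, genes of small and large subunits were set apart after their values were seen. Not every small subunit gene of the enzyme was followed. The 9 that were followed all passed on the negative side, with a median of -1.59. Their values ran from -1.88 for Polr2i, which overlaps Ovol3 and Tbcb, to -0.92 for Polr2e in the authors' deposited table. The genes of its 2 large catalytic subunits did not pass: Polr2a stood at 0.38 (SE 0.29, DESeq2 adjusted p = 0.347) and Polr2b at -0.11 in the authors' deposited table. Of the wider list of polymerase, general factor and Mediator genes, 32 of 84 passed on the negative and 4 on the positive side. Med13l, a large Mediator kinase-module gene, stood at 1.30 and the small Mediator gene Med21 at -1.22 in the authors' deposited table.

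In the spliceosome, 20 genes for Sm and LSm proteins were followed beside 7 for large U2 and U5 proteins. Of the 20 genes for Sm and LSm proteins, the rings that bind small nuclear RNAs, 14 passed on the negative and 0 on the positive side, with a median of -1.32. Snrpg stood at -1.94 in the authors' deposited table (SE 0.49, DESeq2 adjusted p = 0.000875), Lsm3 at -1.91 (SE 0.32) and Snrpd2 at -1.63. Of 7 genes for large U2 and U5 proteins none passed, and they ranged from -0.24 to 0.18, with Sf3b1 at -0.07, Prpf8 at 0.03 and Snrnp200 at -0.12 in the authors' deposited table. U2af2, which recognizes the polypyrimidine tract, passed on the positive side at 0.94. Among splicing regulators of the hnRNP and SR families, 7 of 43 passed positive (16.3%) and 3 negative (6.98%). The shares of all genes were 11.6% and 21.2%. After centring, 10 passed positive and 1 negative. Hnrnpul1 stood at 1.56 and Srsf3 at -0.74 in the authors' deposited table.

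**Figure D4:**
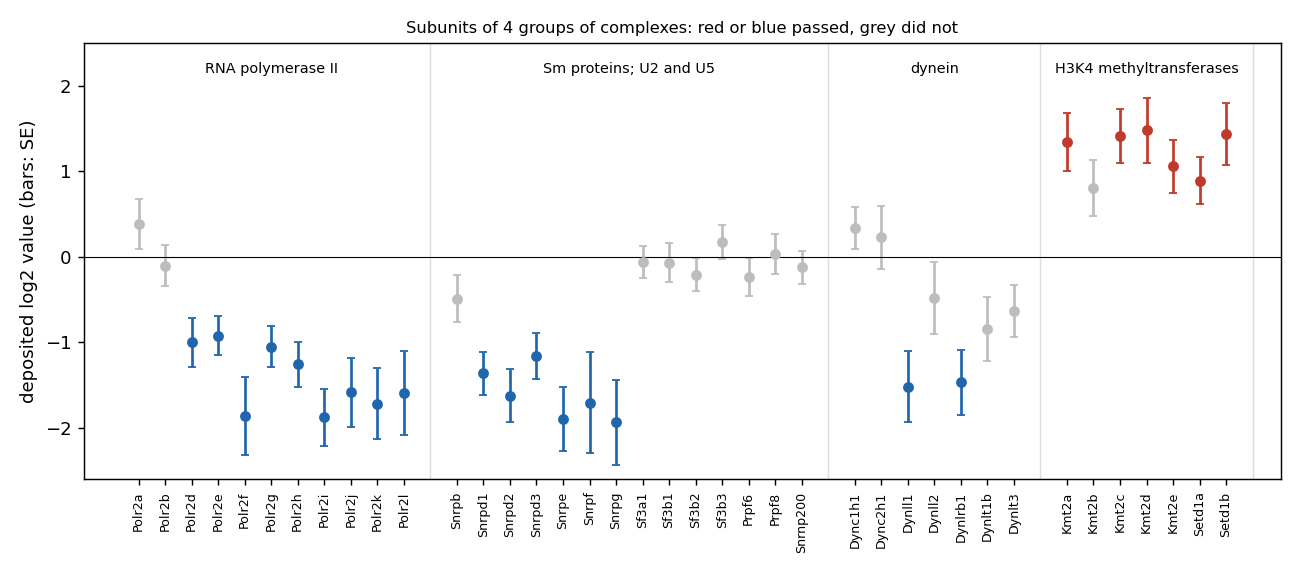
Deposited log2 value with its standard error (y axis) for single genes (x axis) of RNA polymerase II, the Sm and the large U2 and U5 proteins, dynein and the H3K4 methyltransferases; red points passed on the positive side, blue on the negative, grey did not pass. The 9 small polymerase subunits followed are blue, the large polymerase, U2 and U5 subunits are grey, and 6 of 7 methyltransferases are red. The groups were drawn up after the values were seen.

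Dynein carries cargo toward the minus ends of microtubules, and 2 of its 5 light chain genes passed, Dynll1 at -1.52 (SE 0.41) and Dynlrb1 at -1.47 in the authors' deposited table. The other 3, Dynlt1b at -0.85, Dynlt3 at -0.63 and Dynll2 at -0.48, did not pass. Its heavy chain gene Dync1h1 did not pass, at 0.34 (SE 0.25). Of 24 kinesin genes, 7 passed positive and 0 negative, with Kif13b at 3.57 and Kif5b at 1.65 in the authors' deposited table. In the actin and myosin list, 7 of 57 genes passed positive (12.3%) and 10 negative (17.5%), beside 11.6% and 21.2% of all genes. Among them, Tmsb4x, which binds actin monomers, stood at -1.84 and the myosin light chain gene Myl6 at -1.08 in the authors' deposited table. Capza1, a capping gene, had 1.26 there.

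Of 38 proteasome genes 23 passed, all negative, with a median of -0.61; after centring 14 passed. Of 14 genes of the 20S core, where proteins are cut, 12 passed on the negative side and all 14 were below 0 (median -0.86). Psma7 stood at -1.12 and Psmb3 at -1.08 in the authors' deposited table. Of 6 genes for ATPases of the 19S cap, 3 passed on the negative side and all 6 were below 0 (median -0.51). Of 16 genes of prefoldin and the chaperonin, which fold actin and tubulin, 10 passed on the negative side (6 after centring). All 16 were below 0, with the prefoldin genes Pfdn4 at -1.59 and Pfdn1 at -1.51 in the authors' deposited table. Genes that attach or remove ubiquitin gave other counts. Of 41 Usp deubiquitinase genes, 17 passed positive and 1 negative (median 0.47), with Usp53 at 1.89 in the authors' deposited table. Of 55 HECT and RING ligase genes 15 passed positive and 4 negative (26 and 3 after centring), with Cbl, which ubiquitinates receptor tyrosine kinases, at 1.91 and Mib1 at 1.81; the negative ones included Rbx1 at -1.58 and Rnf7 at -1.17, the small RING subunits of cullin ligases, in the authors' deposited table. Of 83 cullin and F-box genes, 9 passed positive (10.8%) and 14 negative (16.9%), beside 11.6% and 21.2% of all genes, and of 32 ubiquitin conjugating enzyme genes, 3 passed positive and 11 negative.

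Mitochondrial protein import was the lowest of the 57 lists. Among the lists shown for scale, mitochondrial ribosomal proteins (median -0.99), oxidative phosphorylation (-1.38) and cytosolic ribosomal proteins (-1.44) lay lower, and translation factors (-0.40) higher. In the import list the counts were as follows. Of 48 genes 33 passed, all on the negative side, with a median of -0.98, and 15 of the 22 TIM and TOM translocase genes were among them. Tomm7, a small subunit of the outer membrane pore, stood at -2.09 in the authors' deposited table (SE 0.49, DESeq2 adjusted p = 0.000252), Timm8b, an intermembrane chaperone whose gene overlaps Nkapd1, at -1.90 (SE 0.34), and the sulfhydryl oxidase gene Gfer at -1.09. Antioxidant enzymes and thioredoxins had 24 of 44 genes negative and 1 positive (median -0.73). The positive one was Nfe2l1, a transcription factor that induces proteasome genes, at 0.77 (SE 0.11), and the glutaredoxin gene Glrx2 stood at -1.42 in the authors' deposited table. Genes of the RNA exosome, which degrades RNA from the 3′ end, were 10 of 15 negative, with Exosc8 at -0.95 in the authors' deposited table. Citric acid cycle genes were 6 of 25 negative (24.0%) and 0 positive, and glycolysis genes 4 negative (12.1%) and 3 positive (9.09%) of 33, beside 21.2% negative and 11.6% positive of all genes.

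In the secretory pathway, 16 of 36 genes of import into the endoplasmic reticulum and N-glycosylation passed negative and 1 positive. Small subunits of oligosaccharyltransferase led them: Tmem258 at -1.92, which overlaps Fen1, Krtcap2 at -1.60 and Dad1 at -1.40 (SE 0.26, DESeq2 adjusted p = 1.79e-06) in the authors' deposited table. Of 35 unfolded protein response genes 5 passed on each side (14.3%), beside 11.6% positive and 21.2% negative of all genes. The sensor kinase gene Ern1 stood at 2.39 (SE 0.34) and the mannosidase gene Edem3 at 1.29, while the secreted factor gene Manf at -1.22 and the transcription factor gene Ddit3 at -1.16, which overlaps Mars1 and Mbd6, were negative in the authors' deposited table. Of 39 lipid synthesis genes 3 passed on each side (7.69%), below the shares of all genes. Fads2, a fatty acid desaturase, stood at 2.00, the sterol regulator gene Srebf2 at 1.00 and the sterol isomerase gene Ebp at -0.90 in the authors' deposited table. Of 50 V-ATPase and lysosome genes 11 passed negative, a share near the 21.2% of all genes, and 0 positive (6 and 1 after centring).

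Among cell cycle genes, the replicative MCM helicase did not pass in any of its 6 genes, which ranged from -0.40 to -0.08. The wider replication list had 20 of 54 negative and 1 positive, with Rpa3, the smallest subunit of the single-strand binding protein, at -1.34 and Gins1 at -0.93 in the authors' deposited table. Kinetochore CENP genes were 9 of 18 negative and 0 positive, while condensin and cohesin genes were 3 of 16 positive and 0 negative. The large kinetochore scaffold gene Casc5 stood at 1.81 (SE 0.31) and the chromosome passenger gene Birc5 at -0.98 in the authors' deposited table. Of 52 cyclin and CDK genes, 12 passed positive and 8 negative; Ccnt1 at 2.07 and Cdk12 at 1.30, which drive transcription elongation, were positive, and the small CDK-binding gene Cks2 at -1.45 was negative in the authors' deposited table. DNA repair had 5 positive (7.46%) and 13 negative (19.4%) of 67, beside 11.6% and 21.2% of all genes. After centring, 11 passed positive and 9 negative. The nucleotide excision gene Xpa stood at -1.30 and the thymine glycosylase gene Tdg, which overlaps Glt8d2, at 1.99 in the authors' deposited table. Nuclear pore and transport genes were 8 positive (15.7%) and 6 negative (11.8%) of 51 (14 and 2 after centring). The importin gene Ipo7 stood at 1.82, Nup153 at 1.07 and Nup35 at -1.33 in the authors' deposited table.

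Of 34 antigen presentation and interferon genes, 9 passed negative (26.5%) and 3 positive (8.82%), beside 21.2% and 11.6% of all genes, with B2m, the light chain of class I molecules, at -1.17 and Ifitm3 at -1.33 in the authors' deposited table, and the class I activator gene Nlrc5 at 0.80. Of 34 chemokine, cytokine and NF-kB genes, 5 passed negative (14.7%) and 2 positive (5.88%). The cytokine gene Mif stood at -1.40 and the receptor gene Il6st at 1.15 in the authors' deposited table. Of 18 S100 and annexin genes 9 passed negative and 1 positive: S100a11 stood at -1.80 (SE 0.31), and the positive one was Anxa11 at 1.50 (SE 0.17, DESeq2 adjusted p = 6.94e-16) in the authors' deposited table.

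Gene size ran alongside the value across the whole table. Of the 10654 genes, 10623 matched the RefSeq annotation of GRCm38.p6, which gave the genomic span from first to last base. With the genes cut by span into 10 bins of equal number, the bin of the shortest genes, up to 4.39 kb, had a median of -0.80, with 3.39% positive and 52.5% negative. The bin of the longest genes, from 108.9 kb, had a median of 0.29, with 24.4% positive and 6.87% negative. Genes that passed on the negative side had a median span of 10.0 kb and those on the positive side 55.9 kb. The lists differed in span, and its part in their counts was not tested. HECT and RING ligase genes (median 82.6 kb) had 27.3% positive, beside 25.3% in the bin from 64.6 to 108.9 kb. The bin from 43.2 to 64.6 kb had 19.1% positive. With medians in that bin, receptor tyrosine kinase genes had 21.1%, TGF-beta and BMP genes 18.8% and histone and DNA modifying enzyme genes 45.3%. Across the 10623 genes Spearman's rho was 0.47, a description of genes measured in the same libraries, where the median mean count was 870 in the bin of shortest and 475 in the bin of longest genes. Span includes introns and is not the length of the mRNA. The mean count had a rho of -0.18 with the value over 10654 genes. In the bin of highest mean count, of 10 such bins, 4.22% passed positive and 40.0% negative.

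**Figure D5:**
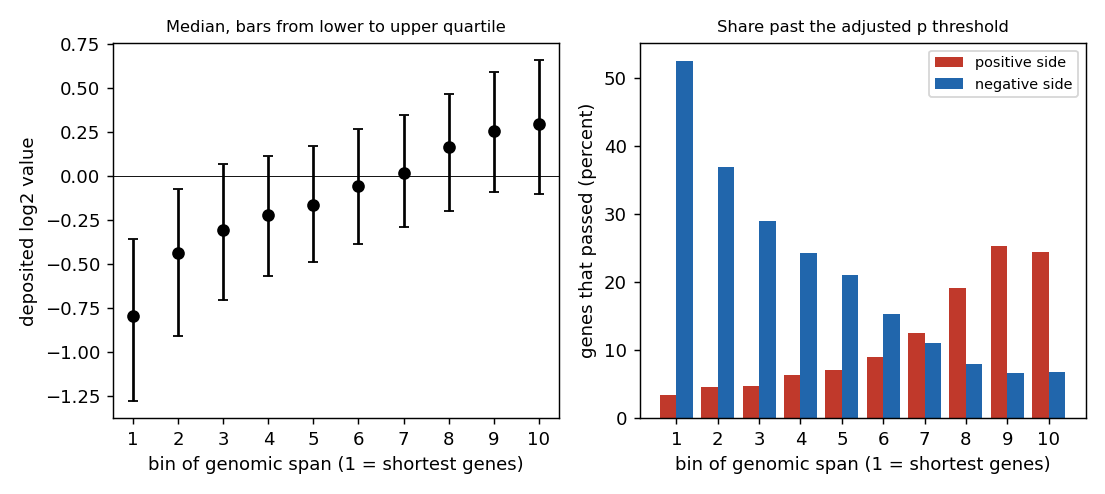
Left, median deposited log2 value (y axis; bars from lower to upper quartile) by bin of genomic span (x axis, from 1 for the shortest genes to 10 for the longest); right, percent of genes in each bin that passed on each side. The median goes from -0.80 in bin 1 to 0.29 in bin 10.

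By kind of gene, 10260 protein-coding genes had 11.5% positive and 20.9% negative, and 257 long noncoding RNA genes had 14.4% and 26.1%. All 20 small nucleolar RNA genes were below 0 and 15 passed. Of 31 miRNA genes 20 passed, but 29 of the 31 lie in or over another gene. The libraries do not mark strand, so reads of a miRNA gene cannot be told apart from those of its host. The same holds for the 5159 genes that overlap another annotated gene.

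Motifs were counted in the bases around the start of each gene. The promoters below show how the motifs lie in 2 genes of the import list on the negative side and 2 remodeler genes of the positive side. Minos1 is on the import list but is not a translocase gene. They were chosen by smallest p among genes that hold the motif, a different one for each pair, so they are examples and no comparison. Each is the 150 bases before the first listed start, from RefSeq (GRCm38.p6), on the strand of the gene, 5′ to 3′. Capitals mark CCGGAAG or its reverse CTTCCGG, the core that ETS factors such as GABP bind, in the first pair, and GGGCGG or its reverse CCGCCC, the GC box that SP factors bind, in the second pair; a match to the other pair's motif is not marked.
Timm8b, chr9:50603751-50603900 (plus strand): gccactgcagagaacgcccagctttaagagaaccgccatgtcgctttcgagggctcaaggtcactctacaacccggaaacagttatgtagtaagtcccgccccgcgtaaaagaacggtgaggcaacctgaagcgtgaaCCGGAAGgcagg
Minos1, chr4:139131038-139131187 (minus strand): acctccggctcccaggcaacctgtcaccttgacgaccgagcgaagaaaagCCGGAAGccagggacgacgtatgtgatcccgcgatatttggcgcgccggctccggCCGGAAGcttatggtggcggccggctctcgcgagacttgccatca
Gatad2b, chr3:90293031-90293180 (plus strand): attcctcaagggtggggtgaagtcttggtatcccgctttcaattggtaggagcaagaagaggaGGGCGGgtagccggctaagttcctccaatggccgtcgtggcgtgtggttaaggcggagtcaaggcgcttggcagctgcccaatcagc
Baz2a, chr10:128092633-128092782 (plus strand): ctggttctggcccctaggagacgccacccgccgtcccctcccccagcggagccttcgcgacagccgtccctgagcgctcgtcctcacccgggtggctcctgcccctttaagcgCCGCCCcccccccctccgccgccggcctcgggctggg

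Over the full window, from 250 bases before to 50 after the start, CCGGAAG was searched on both strands. It was found in 26.5% of 1819 promoters on the negative side, 15.9% of 982 on the positive side and 20.6% of the 8564 genes with a promoter sequence, against 8.86% of all 32851 promoters of the reference. The share was 42.9% of 42 genes of the import list, 35.9% of 39 snRNP and LSm genes and 12.1% of 33 chromatin remodelers. Without ribosomal protein and respiration genes, the negative side held it in 25.7%. GGGCGG, on both strands, was found in 62.2% of negative, 71.4% of positive and 90.9% of remodeler promoters, beside 67.7% of the 8564 and 35.7% of all promoters. Histone and DNA modifying enzyme promoters, also of a mostly positive list, held it in 64.6% of 48. The share was 66.7% of snRNP and LSm and 57.1% of import promoters. Neither motif contains the other. The G and C content had a median of 59.3% on the negative and 64.3% on the positive side. CTTTC on the gene strand within 20 bases of the start, as in the pyrimidine-rich starts of ribosomal protein messages, was in 5.33% of negative (4.51% without ribosomal protein and respiration genes) and 4.58% of positive promoters. It was in 30.5% of ribosomal protein promoters and 5.49% of all promoters. A match is a run of letters and was not tested as a binding site.

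The series also holds measurements of translation from other libraries. The authors' deposited efficiency table sets knockdown over control in 4T07, from footprints and mRNA; 9508 of the genes were in it and 0.0% passed its adjusted p. The efficiency change had a median of -0.06 for 1875 negative-side genes and -0.00 for 1140 positive-side genes, with quartiles at -0.29 and 0.19 and at -0.17 and 0.20. Over 9508 genes the polysome value had a rho of 0.06 with the efficiency change and -0.10 with the mRNA change, across genes of 1 cell line. The efficiency of control cells alone had a log2 median of 0.23 on the negative and -0.39 on the positive side. In the authors' deposited RiboTag table, which compares PyMT tumors labelled Lars Het and wt, 3 of each, in a direction that is not stated, 0.0% of 10350 genes passed, and the medians were -0.08 on the negative and 0.03 on the positive side (rho 0.16).

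By list, the import genes, at a polysome median of -0.98, had an efficiency median of -0.09 over 43 genes, with 24 below 0; of all 9508 genes 51.8% were below 0. The proteasome genes had -0.00 over 38, and histone and DNA modifying enzyme genes 0.03 over 64. Nuclear pore genes were above 0 in efficiency for all but 11 of 48, with a median of 0.16, and ubiquitin conjugating enzyme genes for all but 6 of 25, with a median of 0.20. Collagen and matrix genes were below 0 for 29 of 33, with a median of -0.22 in efficiency and 0.17 in mRNA, in the authors' deposited table. In the authors' deposited RiboTag table, collagen and matrix genes had a median of 0.54, integrin and laminin genes 0.38 and cadherin and protocadherin genes 0.38, beside -0.03 over all 10350 genes.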

How the data were processed

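The authors deposited 1 polysome table, per the file headers a DESeq2 result. Its mean normalized count is a size-factor scaled signal averaged over the authors' libraries, its log2 value and standard error are on the log2 scale as the authors deposited them, its Wald statistic is a score the authors deposited, and its p-value and adjusted p-value are the authors' own. The efficiency and RiboTag tables used beside it are the authors' deposited log2 values and p-values. The labels' protocols give the TruSeq RNA Library Prep Kit v2, which does not mark strand, and the build mm10, STAR 2.5.2a, Bowtie2 2.4.1, HTSeq, featureCounts, SAMtools and DESeq2 are listed without roles in the submitters' processing notes.

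A Benjamini-Hochberg adjustment over the 13485 genes with a deposited adjusted p returned those values. No column holds a single library, so total counts and the spread of replicates were not analysed here beyond the relative size factors read from single-read genes, and the planned count test gave way to the deposited test. Alternatives were other count minimums (10, 200 or none), an adjusted p under 0.01, adjustment over the 10654 genes, and values centred on their median with the Wald p recomputed. The centred test was checked on simulated data. Genes were named by rule: among those that passed, the 10 highest and lowest with a mean count of at least 1000, ranks 11 to 20 per side and in each list up to 3 per side by smallest p, and also the highest and lowest of each list, passed or not. The 10 highest and lowest and ranks 11 to 20 left out ribosomal protein and oxidative phosphorylation genes. They also left out pseudogenes and symbols that end in Rik or start with Gm. Members of the small complex groups, whose groups were drawn up after values were seen, are named outside the naming rule. The genes and lists were chosen with earlier results of these data known. Symbol patterns were used for some lists, and 1 pattern was narrowed after it was found to take other genes. The values of 2 of the 57 lists are not reported here. Coordinates and promoters are from RefSeq tables of GRCm38.p6, the assembly behind mm10. Tables were handled with pandas 2.3.3 and numpy 2.4.6 in Python 3.11.15, tests with scipy 1.17.1 and plots with matplotlib 3.10.9.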

Additional observations from a re-analysis of the deposited data

How the results depend on the processing

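The counts of genes that passed, 3494 in all, 1239 positive and 2255 negative, were within 1.5 times of these under 6 of the 8 alternatives: they ran from 3054 to 3761 in all. At an adjusted p under 0.01, 801 passed positive and 1541 negative. Among the 5382 protein-coding genes that overlap no other gene, an alternative chosen after seeing the data that tests fewer genes, 1737 passed, 528 positive and 1209 negative. Of the genes named by rule and the complex members, passed or not, centring on the median took 28 below the threshold, brought 21 above it and reversed 0. The rank correlation with genomic span, added after seeing the data, was 0.505 at mean counts of at least 200, 0.446 without ribosomal protein and respiration genes and 0.496 for the 5382 genes. Protein length and leucine share, which were planned, were not run, since no protein sequences were used here. No paired analysis was possible because the tables give no value per library. For the same reason no library could be left out. Relative size factors ran from 0.312 to 2.26 among the libraries in the contrast, and the part of depth in the gene values was not tested. Depth per library could not be examined beyond these factors and the deposited standard errors.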
